A study of Homo sapiens with 6 samples.

Results

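The genes described here are 40 genes of the amino acid response, 19 of which encode cytosolic aminoacyl-tRNA synthetases and 21 of which encode ATF4 or proteins of the programme that ATF4 controls. They were picked by gene symbol from 24551 genes, as a list of pathway genes drawn up with their change under each SPOP siRNA in these libraries already known. All 40 had a mean of at least 1 FPKM (fragments scaled to transcript length and to the mapped fragments of the library) over the 6 libraries, as did 11865 genes in all. SPOP, the substrate-binding subunit of a CUL3 ubiquitin ligase, was knocked down in 2 human cancer cell lines, and RNA-Seq was used to ask how expression changed in each. DU145 is a prostate carcinoma line and 769-P is a renal cell adenocarcinoma line. Each line had 1 library from cells that received a control siRNA (NC), 1 from cells that received SPOP siRNA 1 and 1 from cells that received SPOP siRNA 2, with no other treatment named. The study's methods describe 2 biological replicates of each sample, but a single library stands for each in the labels. A line's 2 siRNAs were therefore taken as the replicates of its knockdown. They are different siRNAs with 1 library each, so an SD over them mixes differences between siRNAs with differences between libraries. Each line comes from a single tumour and stands for itself, not for its tissue.

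An aminoacyl-tRNA synthetase joins 1 amino acid to its tRNAs, which is the step that supplies the ribosome with building blocks. When an amino acid is scarce, or when proteins misfold in the endoplasmic reticulum, kinases phosphorylate the initiation factor eIF2, most translation slows and the mRNA of the transcription factor ATF4 is translated more. ATF4 pairs with C/EBP proteins on composite promoter elements and switches on genes for amino acid synthesis and uptake, for the synthetases and for regulators such as DDIT3 (CHOP) and TRIB3. Since ATF4 is controlled largely at translation, its mRNA level is not a measure of its protein. No protein was measured in these libraries.

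SPOP itself was lowered in every siRNA library. It had 16.1 FPKM in the DU145 control against 2.77 with siRNA 1 and 2.96 with siRNA 2. The 769-P control had 11.6 FPKM against 1.53 and 1.39 with the siRNAs. The levels of marker genes matched the label of 769-P but were thin for DU145. The summed level of 6 renal markers was 255 to 273 FPKM in 769-P, with PAX8 highest at 106 to 125 FPKM and CA9 listed at 0, and 21.2 to 30.5 FPKM in DU145. Of the prostate markers, STEAP1 had 9.84 to 16.1 FPKM in DU145 and at most 0.521 FPKM in 769-P, while KLK3, KLK2, FOLH1 and HOXB13 were at most 0.312 FPKM in DU145. Leukocyte markers summed to at most 1.64 FPKM in any library. The 4 markers of fibroblasts and endothelium that were analysed summed to 3.02 to 3.93 FPKM in DU145, and in 769-P to 1.78 FPKM in the control against 10.3 and 7.72 with the siRNAs. In 769-P this sum moved with knockdown, mostly through COL1A1 at 1.71, 9.68 and 7.36 FPKM, while PECAM1 was listed at 0, and its part in the 769-P results was not tested. A pair of libraries stood apart at low values. Of 366 olfactory receptor genes, which these cells should not express, 287 were above 0 in the DU145 control (mean 0.345 FPKM) and 237 in 769-P siRNA 2 (mean 0.227 FPKM), against 3 to 5 in the others. With each library's olfactory receptor mean subtracted, the number of members past 1.5-fold was as large as before in both lines.

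Some promoters of these genes hold the letters of the composite element through which ATF4 and C/EBP proteins bind. The element was searched as TGATGNAA on either strand, which reads TTNCATCA on the opposite strand, in RefSeq promoters of GRCh38.p14 that run from 250 bases before to 50 bases after the start. Of the 40 genes, 34 were matched, and the letters were present in a promoter of 13 of them, or 38.2%. Of all 27305 genes with a promoter in that table, 1217 had them, or 4.46%. They were found for 7 of the 16 matched synthetases, which were AARS, CARS, GARS, IARS, MARS, NARS and TARS. They were also found for 6 of the 18 matched response genes, which were ATF3, CEBPG, CHAC1, ASNS, SLC3A2 and SLC1A5. For comparison, 1 of the 14 matched mitochondrial synthetases and 1 of the 17 matched genes of folding and degradation in the endoplasmic reticulum held them. Among other ATF4 targets, 4 of the 12 matched genes did, or 33.3%, which is also the share of the matched response genes. The letters were held by 1 of 6 matched genes for eIF2 kinases and phosphatase subunits. In a list of multisynthetase complex scaffolds and VARS, 0 of 3 matched genes held them. The members were matched as named in the table, and DARS, LARS, YARS, NUPR1, PSPH and SHMT2 were not matched. A match is a description of the letters and not evidence of binding in these cells, and several of these genes are textbook examples of ATF4 control. Stretches of 40 bases are shown for 6 of the genes, from both classes, so that the element can be compared between them. Each is written 5′ to 3′ on the strand of the gene, and the capitals mark the 8 letters of the motif on either strand, whose first base is given counting back from the start.

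AARS, chr16:70289670-70289709, minus strand, motif from base -187: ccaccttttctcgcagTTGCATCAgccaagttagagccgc
GARS, chr7:30594829-30594868, plus strand, motif from base -33: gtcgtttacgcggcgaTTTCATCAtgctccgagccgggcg
CEBPG, chr19:33374055-33374094, plus strand, motif from base -42: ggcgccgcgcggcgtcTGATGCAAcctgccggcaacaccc
CHAC1, chr15:40953246-40953285, plus strand, motif from base -209: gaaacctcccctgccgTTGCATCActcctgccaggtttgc
ASNS, chr7:97872453-97872492, minus strand, motif from base -68: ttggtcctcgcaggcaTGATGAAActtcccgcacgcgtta
SLC1A5, chr19:46784888-46784927, minus strand, motif from base -97: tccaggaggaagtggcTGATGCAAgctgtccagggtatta

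The sixth letter of the element differed between these genes, and so did its strand. CEBPG and SLC1A5 carried the same 8 letters on the gene's strand, and AARS and CHAC1 carried that element on the opposite strand. ASNS and GARS carried a variant with a different sixth letter. TRIB3, SARS, ATF4 and DDIT3 had no match in this window, which says only that these letters are not within it.

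ATF4 was the most highly expressed of the 40 genes in every library. It lies on chromosome 22 of GRCh37 from 39915700 to 39918688 on the plus strand. Its mRNA had 284 FPKM in the DU145 control, 362 with siRNA 1 and 337 with siRNA 2. The corresponding levels in 769-P were 182, 266 and 237 FPKM. Each siRNA library was thus above the control of its line, and the 2 siRNA libraries of a line lay closer to each other than to the control. The log2 fold change on the scale of FPKM plus a pseudocount of 1, used for all fold changes here, was 0.35 and 0.24 in DU145 and 0.55 and 0.38 in 769-P. None of these reached 1.5-fold, which was the threshold for a call when passed in the same direction with both siRNAs.

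**Figure D1:**
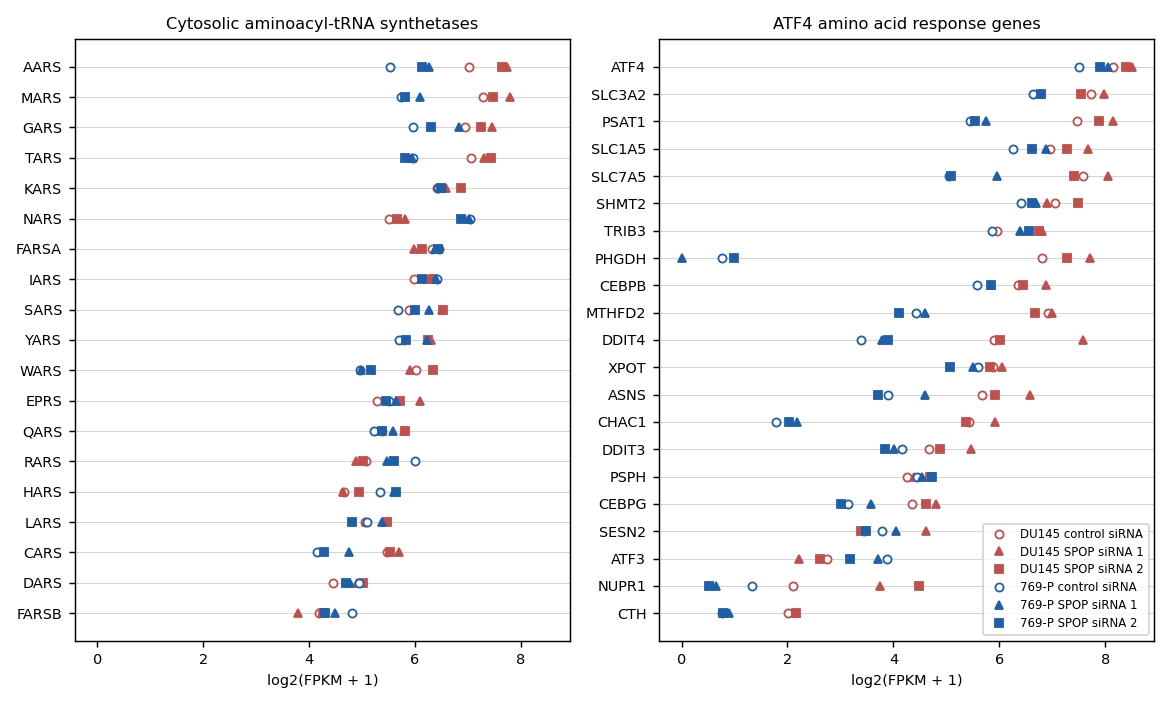
Level of each of the 40 genes in each library, as log2(FPKM + 1) on the horizontal axis, with synthetases on the left and ATF4 response genes on the right, each ordered by mean FPKM. Open circles are control siRNA, triangles SPOP siRNA 1 and squares SPOP siRNA 2, in red for DU145 and blue for 769-P. ATF4 is highest in all 6 libraries, and PHGDH and CHAC1 show the widest gaps between the lines.

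A change after knockdown was called for 4 of the 40 genes in DU145, all of them higher, and for 2 in 769-P, of which 1 was higher and 1 lower. The 4 genes in DU145 were AARS, SARS, TRIB3 and NUPR1. In 769-P the higher gene was AARS and the lower gene was NUPR1. Among all 11865 genes tested, 4.72% were called higher and 1.19% lower in DU145, and 3.60% higher and 3.73% lower in 769-P. Because the list was drawn up with these changes known, and each line has 1 control library, the counts are a description and carry no p-value. At 2-fold with both siRNAs, NUPR1 was the 1 gene of the list that was called, in DU145, against 0.666% of all genes.

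AARS, the alanyl-tRNA synthetase (chromosome 16 of GRCh37, 70285886 to 70323610, minus strand), was the gene of the list called higher in both lines. It had 128 FPKM in the DU145 control, 213 with siRNA 1 and 199 with siRNA 2, or 206 ± 10.2 (SD, n = 2 siRNAs) after knockdown. The 769-P control had 45.3 FPKM, siRNA 1 had 76.1 and siRNA 2 had 68.8, or 72.5 ± 5.16 (SD, n = 2). In each line both siRNA libraries were well above the control, and the gap between siRNAs was smaller than the distance of either from the control. The change was 1.66-fold and 1.55-fold in DU145 and 1.67-fold and 1.51-fold in 769-P, so in both lines siRNA 2 was close to the threshold.

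SARS, the seryl-tRNA synthetase (chromosome 1, 109756540 to 109780804, plus strand), had 58.4 FPKM in the DU145 control, 89.8 with siRNA 1 and 91.4 with siRNA 2. In the 769-P libraries, in the same order, the levels were 50.4, 76.0 and 63.2 FPKM. All 4 siRNA libraries were above their control, but in 769-P the change stopped just short of 1.5-fold with siRNA 1 and was 1.25-fold with siRNA 2. In DU145 it was 1.53-fold and 1.56-fold. With the fold changes centred on the median of all genes, which was 0.07 and 0.12 on the log2 scale for the 2 siRNAs in DU145, neither AARS nor SARS passed the threshold there, and TRIB3 and NUPR1 did.

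TRIB3 encodes a pseudokinase that is induced by ATF4 and restrains the response. It lies on chromosome 20 from 343479 to 378203 on the plus strand. Its level was 60.7 FPKM in the DU145 control, 111 with siRNA 1 and 107 with siRNA 2. The 769-P libraries had 57.1, 83.1 and 92.9 FPKM in this order. The controls of both lines were nearly equal, and all 4 siRNA libraries were higher than either. The log2 fold change was 0.86 and 0.80 in DU145 and 0.53 and 0.69 in 769-P, where siRNA 1 did not reach the threshold.

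NUPR1 encodes a small chromatin-associated stress protein and lies on chromosome 16 from 28544029 to 28550329 on the minus strand. It had 3.31 FPKM in the DU145 control, 12.5 with siRNA 1 and 21.5 with siRNA 2, which is 17.0 ± 6.35 FPKM (SD, n = 2 siRNAs) after knockdown. For 769-P the control value was 1.52 FPKM, with 0.565 after siRNA 1 and 0.427 after siRNA 2. The siRNA libraries were thus higher than the control in DU145 and lower than the control in 769-P. The change was 3.13-fold and 5.21-fold in DU145, where its mean log2 fold change of 2.02 was the widest of the list. In 769-P its values were under 1.6 FPKM throughout, and it passed the filter on mean FPKM through the DU145 libraries. The log2 fold change of -0.68 and -0.82 there is understated by the pseudocount, and with a pseudocount of 0.1 the mean over both siRNAs was -1.45 instead of -0.75.

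The other transcription factors of the response were split. ATF3, a repressor of the same family, was below the control in all 4 siRNA libraries, with a mean log2 fold change of -0.33 in DU145 and -0.44 in 769-P. DDIT3 was above the control with both siRNAs in DU145 (log2 0.81 and 0.21) and below it with both in 769-P (-0.15 and -0.33). DDIT3 and MARS, the methionyl-tRNA synthetase, overlap by 982 bases on opposite strands of chromosome 12, and the sources used here do not say that counting used strand, so reads in the overlap cannot be told apart. DDIT3 also overlaps MBD6 by 1028 bases on the opposite strand and an unnamed gene by 2769 bases on its own strand. MARS overlaps ARHGAP9 by 13370 bases on the opposite strand. Reads in a same-strand overlap could not be told apart by strand either. CEBPB, a partner of ATF4, was higher in all 4 siRNA libraries, with mean log2 fold changes of 0.31 and 0.27. For CEBPG, the smaller partner, the means were 0.36 and 0.15, with the 2 siRNAs on opposite sides of the control in 769-P.

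**Figure D2:**
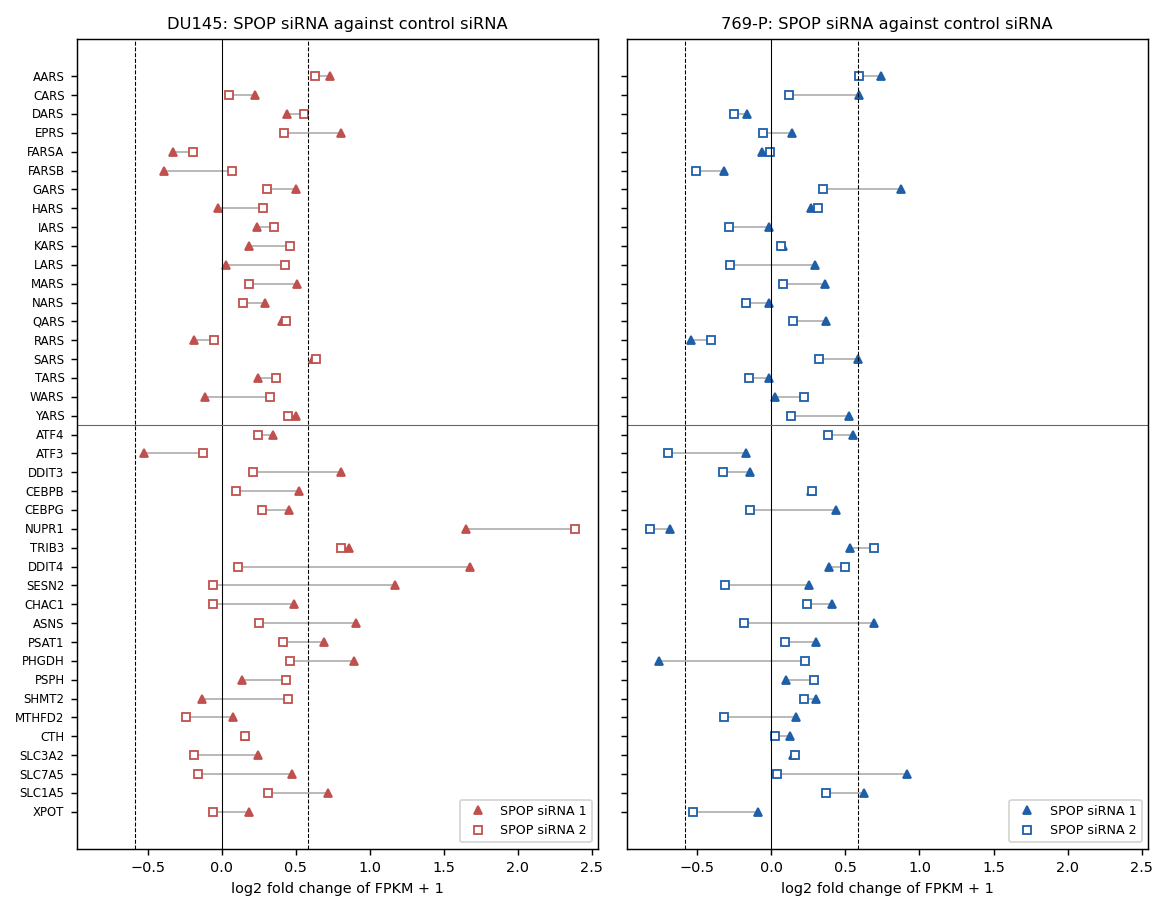
Log2 fold change of FPKM + 1 for each of the 40 genes, SPOP siRNA against control siRNA, in DU145 (left) and 769-P (right). Triangles are siRNA 1, open squares siRNA 2, the grey line joins them and the dashed lines mark 1.5-fold in each direction. Both symbols lie beyond a dashed line for AARS, SARS, TRIB3 and NUPR1 in DU145 and for AARS and NUPR1 in 769-P, with NUPR1 on opposite sides.

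In the group of genes that slow growth or feed back on the response, to which TRIB3 belongs, the siRNAs were far apart in DU145 for DDIT4 and SESN2. DDIT4, an inhibitor of mTORC1, had 58.9 FPKM in the DU145 control, 191 with siRNA 1 and 63.7 with siRNA 2. SESN2, a leucine sensor that also restrains mTORC1, had 9.86 FPKM in the control, 23.4 with siRNA 1 and 9.43 with siRNA 2. Both are named after their values were seen, because they had the widest gaps between siRNAs. In each case siRNA 2 lay next to the control, so the difference belongs to 1 library and was not shared by the siRNAs. CHAC1, which degrades glutathione, had log2 fold changes of 0.49 and -0.06 in DU145 and of 0.41 and 0.24 in 769-P.

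The enzymes of serine, asparagine and one-carbon synthesis were called in neither line. PSAT1, a phosphoserine aminotransferase, had 176 FPKM in the DU145 control, 284 with siRNA 1 and 234 with siRNA 2. Levels in 769-P were lower, at 42.8, 52.9 and 45.7 FPKM in that order. It was above the control in all 4 siRNA libraries, by 1.61-fold and 1.33-fold in DU145 and by 1.23-fold and 1.06-fold in 769-P. Of the 7 enzymes of this group, 5 were above the control with both siRNAs in DU145 and 4 in 769-P, and none was below it with both in either line. Over all genes, 43.5% were above and 22.2% below in DU145, and 31.5% and 39.5% in 769-P. CTH, which was 1 of the 4, and PHGDH had at most 0.976 FPKM in 769-P. The mean log2 fold change ranged from -0.08 for MTHFD2 to 0.68 for PHGDH in DU145, and from -0.27 for PHGDH to 0.26 for SHMT2 in 769-P. ASNS, the asparagine synthetase, was higher than the control by 1.87-fold with siRNA 1 and 1.19-fold with siRNA 2 in DU145. In 769-P the same siRNAs gave 1.62-fold and 0.881-fold.

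The amino acid transporters were among the most abundant transcripts of the list. SLC3A2, the heavy chain that carries several transporters to the membrane, had 210.4 FPKM in the DU145 control, 249.7 with siRNA 1 and 184 with siRNA 2. The 769-P libraries, in the same order, had 98.1, 109 and 109.6 FPKM. Each siRNA library was within 1.19-fold of its control. SLC7A5, the light chain that imports leucine and other large neutral amino acids, had 189 FPKM in the DU145 control, 263 with siRNA 1 and 169.6 with siRNA 2. Its 769-P levels were 32.1 FPKM in the control, 61.4 after siRNA 1 and 33.0 after siRNA 2. In both lines siRNA 1 was above the other 2 libraries. SLC1A5, a glutamine transporter, had 123 FPKM in the DU145 control, 203 with siRNA 1 and 153 with siRNA 2. The 769-P values were 75.5, 117 and 97.8 FPKM. Here all 4 siRNA libraries were above the control, past 1.5-fold with siRNA 1 in both lines. XPOT, which exports tRNA from the nucleus, had mean log2 fold changes of 0.06 in DU145 and -0.31 in 769-P.

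Taken by siRNA, the counts were uneven. In DU145, 12 of the 40 genes were past 1.5-fold with siRNA 1 and 4 with siRNA 2, against 12.0% and 11.3% of all genes. In 769-P, 6 were past it with siRNA 1 and 2 with siRNA 2, against 10.3% and 6.15%. The 12 genes in DU145 were AARS, EPRS, SARS, DDIT3, NUPR1, TRIB3, DDIT4, SESN2, ASNS, PSAT1, PHGDH and SLC1A5. The 6 genes in 769-P were AARS, CARS, GARS, ASNS, SLC7A5 and SLC1A5. AARS, ASNS and SLC1A5 stood in both. On the lower side there were 0 genes with either siRNA in DU145, against 7.42% and 3.73% of all genes. In 769-P there were 2 with siRNA 1 (NUPR1 and PHGDH, against 9.84% of all genes) and 2 with siRNA 2 (ATF3 and NUPR1, against 8.37%). NUPR1 and PHGDH had at most 1.52 FPKM in 769-P and passed the filter through DU145, and PHGDH was above its control with siRNA 2. Their part in these counts is therefore uncertain. Of the 21 response genes, siRNA 1 was above siRNA 2 for 17 in DU145 and for 15 in 769-P. Among all genes siRNA 1 was above siRNA 2 for 5225 of 11865 in DU145 and for 6920 in 769-P. Of the 19 synthetases, siRNA 1 was above siRNA 2 for 7 in DU145 and for 15 in 769-P. The deeper and shallower libraries are not the same in the 2 lines: relative to the 769-P control, depth was estimated at 1.18, 0.691 and 0.681 for the DU145 control, siRNA 1 and siRNA 2 and at 1.07 and 1.41 for 769-P siRNA 1 and siRNA 2. The part of depth in these differences was not tested.

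The synthetases as a class lay above the DU145 control more often than below it. In DU145, 14 of the 19 were above the control with both siRNAs, 2 were below it with both and for 3 the siRNAs disagreed, while 43.5% of all genes were above and 22.2% below. In 769-P, 10 were above with both, 7 below with both and 2 mixed, while 31.5% of all genes were above and 39.5% below. The median of the mean log2 fold change was 0.30 in DU145 and 0.07 in 769-P, against 0.09 and -0.03 over all genes tested, and after centring on the all-gene median it was 0.20 and 0.10. The range was from -0.26 (FARSA) to 0.68 (AARS) in DU145 and from -0.48 (RARS) to 0.67 (AARS) in 769-P. Summed over the 19 genes, the synthetases had 1236 FPKM in the DU145 control, 1577 with siRNA 1 and 1564 with siRNA 2. The sum in 769-P was 1027 FPKM in the control, 1183 with siRNA 1 and 1039 with siRNA 2. The DU145 siRNA libraries were both well above their control, whereas in 769-P siRNA 2 was close to it. As a share of all FPKM, the sum was 0.311%, 0.386% and 0.349% in DU145 and 0.241%, 0.267% and 0.255% in 769-P.

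Several synthetases are held together in the multisynthetase complex, and the 19 were divided by this, a grouping made after their values were seen. The 8 of the complex are DARS, EPRS, IARS, KARS, LARS, MARS, QARS and RARS. In DU145, 7 of the 8 were above the control with both siRNAs and RARS was below it with both, with mean log2 fold changes from -0.12 (RARS) to 0.61 (EPRS). In 769-P, 3 were above with both and 3 below with both, and the range was -0.48 (RARS) to 0.26 (QARS). None of the 8 was called in either line. Of the 11 outside the complex, 7 were above with both siRNAs in DU145 and 7 in 769-P. Over all genes, 43.5% were above with both and 22.2% below in DU145, and 31.5% and 39.5% in 769-P. The median of the mean log2 fold change was 0.33 in DU145 and 0.02 in 769-P for the complex and 0.22 and 0.29 for the others. The difference between these groups was not tested. Among the single genes, GARS, the glycyl enzyme, had 61.5 FPKM in the 769-P control, 114 with siRNA 1 and 78.4 with siRNA 2, which is a wide gap between siRNAs. YARS, the tyrosyl enzyme, had 54.5, 77.4 and 74.8 FPKM in the DU145 control, siRNA 1 and siRNA 2, with the siRNAs close together at 1.41-fold and 1.36-fold. EPRS, which joins both glutamate and proline to their tRNAs, had 38.1, 67.2 and 51.3 FPKM in the same libraries.

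Levels of different synthetases can be set side by side because FPKM is per length. MARS or AARS was the highest of the 19 in DU145, with MARS at 155 FPKM in the control. NARS, the asparaginyl-tRNA synthetase, was the highest in 769-P. FARSB, a subunit of the phenylalanyl enzyme, was the lowest in each DU145 library, with 12.9 to 18.1 FPKM. FARSA, the other subunit of that enzyme, was 62.4 to 78.9 FPKM in the same libraries. FARSA was lower than the control in all 4 siRNA libraries, and so was RARS, the arginyl-tRNA synthetase. In bulk libraries a lower value can come from fewer cells that express a gene or from less RNA per cell, and these cannot be told apart.

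Taking both lines, 16 of the 40 genes were above the control in all 4 siRNA libraries, while 20.1% of all genes were. They were the synthetases AARS, CARS, GARS, KARS, MARS, QARS, SARS and YARS and the response genes ATF4, CEBPB, TRIB3, DDIT4, PSAT1, PSPH, CTH and SLC1A5. FARSA, RARS and ATF3 were below the control in all 4, while 13.6% of all genes were. The size of the shared increase was mostly small, and AARS was the 1 gene past 1.5-fold in all 4. Of the 21 response genes, 13 were above the control with both siRNAs in DU145 and 12 in 769-P, against 43.5% and 31.5% of all genes. In the same order, 1 and 4 were below it with both, against 22.2% and 39.5%. The median log2 fold change of the 21 genes was 0.31 in DU145 and 0.19 in 769-P, but it depended on the siRNA. In DU145 siRNA 1 alone gave 0.49 and siRNA 2 alone 0.21, and in 769-P they gave 0.26 and 0.09. Their summed level was 1780 FPKM in the DU145 control, 2585 with siRNA 1 and 2041 with siRNA 2. The sum was 786, 1032 and 914 FPKM in 769-P in the same order, so that the siRNA 1 library was the highest in each line. As a share of all FPKM, the sum was 0.447%, 0.633% and 0.455% in DU145 and 0.184%, 0.233% and 0.224% in 769-P. By share, siRNA 2 in DU145 was thus close to the control.

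Lists of related genes were described in the same way. The mitochondrial synthetases charge tRNAs in the organelle, and 16 of 17 passed the filter. Their median log2 fold change was 0.04 in DU145 and 0.11 in 769-P. EARS2 and TARS2, 2 of the 16, were above the control in all 4 siRNA libraries, against 20.1% of all genes. In 769-P, FARS2 was called higher, with 5.33 FPKM in the control and 9.38 and 8.79 after knockdown. MARS2 was called lower there, with 10.7 FPKM in the control and 6.23 and 6.41 after knockdown. Neither was called in DU145. Over all genes, 3.60% were called higher and 3.73% lower in 769-P. The summed level of the 17 listed mitochondrial synthetases was 196, 202 and 220.3 FPKM in the DU145 control, siRNA 1 and siRNA 2. In 769-P it was 298, 292 and 278 FPKM. As a share of all FPKM, this sum was 0.0492%, 0.0495% and 0.0492% in DU145 and 0.0698%, 0.0659% and 0.0680% in 769-P. Over these lists, DU145 had the higher cytosolic sum and 769-P the higher mitochondrial sum in every library. The mitochondrial list holds no glycyl or lysyl enzyme, and GARS and KARS were summed with the cytosolic genes alone, so this is not a comparison of all mitochondrial charging.

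A list of 17 other ATF4 targets that passed the filter had a median log2 fold change of 0.49 in DU145 and -0.05 in 769-P. ALDH1L2, a mitochondrial folate enzyme, was its 1 called gene, higher in DU145, where 4.72% of all genes were called higher. It had 1.07 FPKM in the DU145 control and 2.57 and 2.61 after knockdown, and at most 0.0827 FPKM in 769-P. Its mean of 1.06 FPKM passed the filter through the DU145 siRNA libraries, so the filter favoured this call. The 17 genes of folding and degradation in the endoplasmic reticulum, mostly chaperones but with the transcription factor XBP1 and degradation factors among them, had medians of 0.18 and 0.08. Of these DNAJB9, a cochaperone, was called lower in both lines. It had 4.90 FPKM in the DU145 control and 1.56 and 1.58 after knockdown, past 2-fold with both siRNAs, as for 0.329% of all genes. The 769-P values were 3.68 FPKM in the control and 2.02 and 1.65 after knockdown. A list of 7 genes for eIF2 kinases, phosphatase subunits and EIF2S1, the phosphorylated subunit itself, had medians of 0.22 and -0.08. EIF2AK2, the kinase activated by double-stranded RNA (PKR), was called lower in 769-P, from 10.5 FPKM to 4.99 and 4.87, as were 3.73% of all genes. Scaffolds of the multisynthetase complex were few, with 2 genes tested and 0 called.

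**Figure D3:**
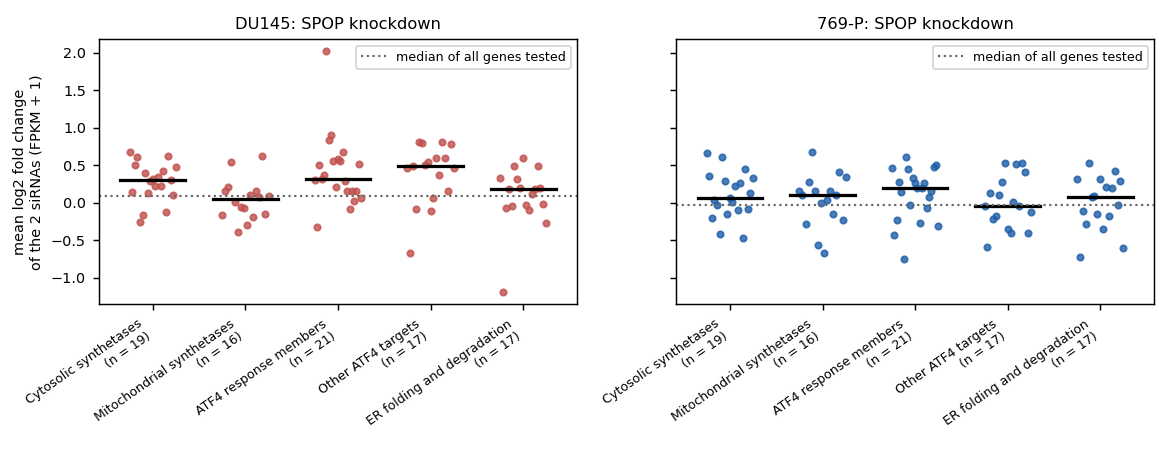
Mean log2 fold change over both SPOP siRNAs for each gene of 5 lists, in DU145 (left) and 769-P (right). Each point is a gene, black bars are list medians and the dotted line is the median of all genes tested. In DU145 the medians of the cytosolic synthetases (0.30), the ATF4 response genes (0.31) and the other ATF4 targets (0.49) lie above the dotted line at 0.09, and in 769-P the corresponding medians are 0.07, 0.19 and -0.05.

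The lines were also compared with each other, 3 libraries each. The levels in each line were among the values known when the list was drawn up, so the counts and differences are a description and nothing is read from them about the list. In limma with Benjamini-Hochberg adjustment over all 11865 genes, 23 of the 40 genes were higher in DU145 and 4 were higher in 769-P at an adjusted p of 0.05. Of all genes, 29.9% were higher in DU145 and 16.5% in 769-P. The 23 include PHGDH, NUPR1 and CTH, which passed the filter on mean FPKM through the DU145 libraries, so the filter favoured their direction. The test takes the control and both knockdown libraries of a line as its replicates, so its spread includes the knockdown response, and the labels do not say that the libraries came from separate cultures. After quantile normalization 22 and 5 of the 40 genes passed, and among all genes the split turned from 3550 and 1959 to 2765 and 2920, the all-gene median moving from 0.16 to -0.05 on the log2 scale.

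PHGDH, the enzyme that opens serine synthesis from glycolysis, differed most. It had 112, 208 and 154 FPKM in the DU145 control, siRNA 1 and siRNA 2 and was listed at 0.690, 0 and 0.976 FPKM in 769-P. It passed the filter on mean FPKM through the DU145 libraries, and the log2 difference of FPKM + 1 was 6.69 (SE 0.30). CHAC1 came next, with 42.0, 59.2 and 40.2 FPKM in DU145 and 2.43, 3.56 and 3.06 FPKM in 769-P. Its log2 difference was 3.57 (SE 0.21). For both genes the 2 lines were far apart in every library. DDIT4 had 58.9 to 191 FPKM in DU145 and 9.51, 12.8 and 13.8 FPKM in 769-P, a log2 difference of 2.81 (SE 0.40). NUPR1, which also passed the filter through DU145, differed by 2.62 (SE 0.53), while its controls had 3.31 and 1.52 FPKM, and it was not called when all genes were tested without the filter. MTHFD2, a mitochondrial one-carbon enzyme, had 119.8, 126 and 101 FPKM in DU145 and 20.6, 23.2 and 16.3 FPKM in 769-P, and differed by 2.48 (SE 0.18).

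Of the 19 synthetases, 6 were higher in DU145 and 3 in 769-P. The 6 were MARS, AARS, TARS, CARS, WARS and GARS, with log2 differences from 0.84 to 1.63. The largest of the opposite sign was NARS, with 44.8, 54.9 and 49.6 FPKM in the DU145 control, siRNA 1 and siRNA 2 and 129.7, 128 and 115 FPKM in 769-P. Its log2 difference was -1.31 (SE 0.15), and the lines did not overlap. HARS had 24.3, 23.8 and 29.7 FPKM in DU145 and 39.3, 47.4 and 49.1 FPKM in 769-P, a log2 difference of -0.78 (SE 0.17). It shares 108 bases with HARS2 and 1090 bases with WDR55 on the opposite strand, and 542 bases with DND1 on its own strand. RARS had 32.6, 28.5 and 31.3 FPKM in DU145 and 63.4, 43.1 and 47.6 FPKM in 769-P, a log2 difference of -0.70 (SE 0.18). So the synthetases were not uniformly higher in the line with the higher sum.

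ATF3 was the 1 response gene that was higher in 769-P. It had 5.68, 3.63 and 5.12 FPKM in DU145 and 13.7, 12.1 and 8.08 FPKM in 769-P, a log2 difference of -1.07 (SE 0.24). ATF4 was higher in DU145 by 0.53 (SE 0.18), but it was not called without the filter, without the trend or when 1 of 4 libraries was left out. The libraries were DU145 siRNA 1, DU145 siRNA 2, the 769-P control and 769-P siRNA 2, without which the difference was 0.46, 0.51, 0.38 and 0.57. The difference in ATF4 was much smaller than that of SLC7A5, PSAT1 and ASNS, which were higher in DU145 by 2.31, 2.25 and 1.99. TRIB3, the feedback gene with the highest mean level, differed by 0.23 and SARS by 0.32, and neither was called.

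**Figure D4:**
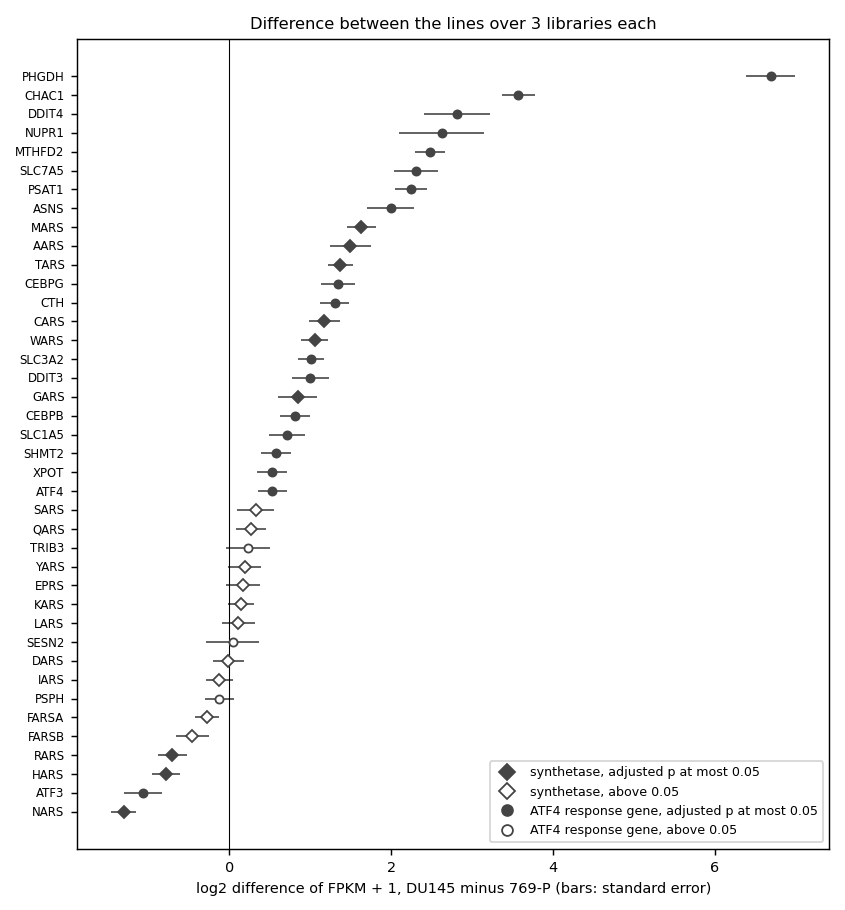
Log2 difference of FPKM + 1 between DU145 and 769-P for each of the 40 genes, with the standard error as bars, over 3 libraries of each line. Diamonds are synthetases and circles ATF4 response genes, filled where counted at an adjusted p of 0.05. PHGDH lies farthest to the right at 6.69 and NARS farthest to the left at -1.31.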

How the data were processed

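RNA-Seq libraries from 2 lines were analysed from the FPKM tables that the authors deposited, with 1 value per gene and library. Per the submitters' processing notes and the study's methods, reads were checked with FastQC, trimmed with cutadapt and mapped to hg19 with TopHat2. The methods name Cufflinks for calling differential expression, and they do not name the tool that gave the FPKM values. Tool versions and the annotation are not given in the sources used here. The labels and the methods name different library kits. Depth is unknown, since FPKM holds no counts, and no count test was run. Relative depth was estimated by setting low values against those of the 769-P control and taking their commonest ratio.

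Rows sharing a symbol were summed (no member was repeated), genes averaging 1 FPKM or more were kept (11865 of 24551), and log2(FPKM + 1) was used. Each siRNA library was compared with its line's control, and a call required 1.5-fold in 1 direction under each siRNA of the line. No test was applied there, because the members and lists were chosen with earlier results of these data known. The lines were compared with limma 3.58.1 in R 4.3.3 (eBayes with a trend, Benjamini-Hochberg over all genes kept). That contrast too is a description, since the levels in each line were known, and its p-values measure the spread between these libraries, which may be technical. The siRNA numbers in the labels pair libraries across lines. Deviations from the line means correlated across genes by 0.35 for controls, 0.33 for siRNA 1 and 0.25 for siRNA 2. Python 3.11.15, pandas 2.3.3 and numpy 2.4.6 were used for the rest, and the scripts were tested on simulated data. There, 200 of 11865 genes were given a log2 change of 1 or of 2. The 1.5-fold call in DU145 recovered 84% and 99% of them, with 565 and 611 false calls. The DU145 libraries themselves gave 560 calls higher and 141 lower. The comparison of lines recovered 38.5% and 89%, with 3 and 12 false calls. The share of false calls among the genes called in the libraries was not tested.

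Values in every library are given for ATF4, for the called members and for the 5 members of highest mean FPKM, and between lines for up to 5 members in each direction, with other genes named as chosen after their values were seen. Gene positions are from a GENCODE annotation of GRCh37, in which the synthetases carry newer symbols, and promoter sequences are from RefSeq. ATF5, HSP90B1, EEF1E1 and COL3A1 were not analysed here, and VARS and VARS2 were left out by the filter. VARS was listed at 0 to 0.0891 FPKM and VARS2 at 0 in 769-P, for a reason that was not tested. The cytosolic sums hold no valyl enzyme. Of the members, PHGDH, NUPR1 and CTH passed the filter through DU145. Some marker genes are not reported here. Alternatives were the pseudocount, the filter, centring, normalization, the trend, the replicate block, subtraction of the olfactory receptor mean and leaving out libraries. No control could be left out of a fold change, since each line has 1.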

Additional observations from a re-analysis of the deposited data

Results flagged for a closer look

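For 6 of the 40 genes both siRNAs moved the level 1 way in DU145 and the other way in 769-P, as did 13.8% of all genes tested. The difference between lines was not tested for any of them. As the DU145 mean log2 fold change less the 769-P one, NUPR1 differed by 2.77 (2.02 against -0.75). DDIT3 differed by 0.74 (0.51 against -0.24). Among the synthetases, DARS differed by 0.71 (0.50 against -0.21), IARS by 0.45 (0.29 against -0.15), TARS by 0.39 (0.30 against -0.08) and NARS by 0.31 (0.22 against -0.09). Apart from NUPR1, none of these genes passed 1.5-fold with both siRNAs in either line.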

How the results depend on the processing

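Centring on the all-gene median took the members called higher in DU145 from 4 to 2, the calls over all genes from 560 higher and 141 lower to 341 and 242, and the synthetase median in DU145 from 0.30 to 0.20. With 1 siRNA alone in place of both, the members called higher numbered 4 to 12 in DU145 and 2 to 6 in 769-P, those called lower in 769-P numbered 2 with either siRNA, and the synthetase median in 769-P was 0.061 to 0.14. No filter, a filter at 5 FPKM, a pseudocount of 0.1 and subtraction of the olfactory receptor mean left these counts at 4, 1 and 1, while over all genes they gave 378 to 819 calls higher and 62 to 498 lower in DU145 (560 and 141 in the analysis reported), and 302 to 730 higher and 271 to 759 lower in 769-P (427 and 442). Between lines, the siRNA number as a replicate block gave 23 and 5 members in place of 23 and 4, with FARSB added on the 769-P side, and it changed no other member's call. The other settings gave 17 to 23 members higher in DU145 and 4 or 5 higher in 769-P, with 17 when no filter was used. Leaving out 1 library gave 18 to 22 and 4, with GARS, ATF4, SHMT2, SLC1A5 or XPOT lost. Without the filter GARS, ATF4, NUPR1, SHMT2, SLC1A5 and XPOT were lost, without the trend ATF4 and XPOT, and after quantile normalization XPOT. No called gene changed sign, but 4 genes that were not called did. Leaving out 1 library gave -0.12 to 0.15 for DARS (-0.01 with all), above 0 without either control, -0.032 to 0.37 for EPRS (0.17), below 0 without DU145 siRNA 1, and -0.032 to 0.25 for LARS (0.11), below 0 without siRNA 2 of either line. It gave -0.36 to 0.26 for SESN2 (0.04), below 0 without DU145 siRNA 1 or 769-P siRNA 2 and also, at -0.13, after quantile normalization. Where a call was lost, the cause was not tested, except that leaving out a library leaves fewer samples. Precision is limited by 1 control library in each line, and CTH in both lines and NUPR1, PHGDH and CHAC1 in 769-P rest on values under 5 FPKM. In DU145, the NUPR1 control, against which its fold changes are taken, was also under 5 FPKM at 3.31, and so was ATF3 with siRNA 1 at 3.63.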
